A study of Rattus norvegicus with 6 samples.

Results

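Apoptotic caspases and the proteins that switch them on or hold them back were followed at the mRNA level in rat nucleus pulposus cells, which fill the soft centre of each spinal disc, cultured with and without lactate. The set holds 8 genes taken by symbol from a table of 17273: the initiator caspases Casp8, Casp9 and Casp2, the executioner Casp6, the endoplasmic reticulum caspase Casp12, the scaffold of Casp9, Apaf1, the caspase inhibitor Xiap and its antagonist Diablo. All 8 were found in the table and passed the filter on low counts. The cells were of wild-type (wt) genotype from male Sprague Dawley rats. Kept in DMEM with fetal bovine serum and antibiotics, they gave 3 control libraries without treatment and 3 lactate libraries after 8 h in 10 mM lactate. The labels give no age and no passage, and they do not tell whether replicates are separate cultures, animals or repeat preparations. Each p-value here thus reflects the spread among these libraries, which may be technical.

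Caspases are proteases made as inactive precursors. Initiator caspases are switched on by being brought together on a platform, and they then cut and activate the executioners, which dismantle the cell. The death receptor platform, built on the adaptor Fadd, recruits Casp8. The apoptosome, a wheel of Apaf1 that forms when mitochondria release cytochrome c, recruits Casp9, and a complex of Pidd1 and Cradd recruits Casp2. Xiap binds and blocks active caspases, Casp9 among them, and Diablo (also named Smac), released from mitochondria, pulls Xiap away. In the disc, loss of nucleus pulposus cells by apoptosis is a recognised part of degeneration. All of these proteins are controlled mainly after translation, and mRNA levels do not measure caspase activity.

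Libraries held 30291357 to 38989574 counts. The groups differed across the transcriptome: with edgeR 9079 of 13747 tested genes were called at an adjusted p under 0.05. Scaling matters in such a comparison. The median log2 fold change of all tested genes was −0.10 with TMM factors, which centre the bulk of genes, and −0.96 when counts were divided by library totals alone. Directions below are those with TMM, and the value with library totals is given where it changes the call of a member or pathway gene named. Of the cartilage markers, Acan was at 2393 CPM (counts scaled to library size, TMM-scaled) in control and 2290 CPM in lactate libraries, while Col2a1 had 2 to 28 counts in a library. Of the 6 cartilage markers 2 were called higher (Sox9, log2 fold change 1.45, and Comp, 1.46), 1 lower (Hapln1, −0.69) and 3 were not called. The notochord markers Tbxt (4 counts in each control library) and Krt19 (2 to 4 counts) had 0 counts in each lactate library. Both were too scarce to be tested, and a count of 0 allows up to 3 counts, so no loss is read from them. The 8 nucleus pulposus and notochord markers in the table summed to 271 to 349 CPM in control and 285 to 360 CPM in lactate libraries, a similar sum made of members that moved apart. Of the 6 tested, Cd24 was called higher (2.32), Pax1 (−0.88), Foxa2 (−1.97) and Cdh2 (−1.11) were called lower, and 2 were not called. The 7 annulus fibrosus and fibroblast markers, dominated by Col1a1, summed to 32648 to 38052 CPM in control and 107138 to 155728 CPM in lactate libraries, with 4 called higher and 2 lower. The 5 macrophage markers summed to 9.78 to 10.8 CPM in control and 4.19 to 5.40 CPM in lactate libraries, with Adgre1 at 0 counts in all libraries but control 1. Most of that sum was Cd14, called lower (−1.72), while Cd68, the only other one tested, was called higher (1.48). The 3 endothelial markers in the table (Kdr, Tek and Vwf) summed to 0.116 to 0.488 CPM in control and 0.210 to 0.680 CPM in lactate libraries. Pecam1, Cdh5 and Emcn were absent from the table, as were the macrophage markers Ptprc and Aif1, so low sums do not show that these cells were absent. Also absent were Col1a2, Tnmd, Rgs5, Krt18, Car12 and Ovos2 of the other lists. The 5 smooth muscle and pericyte markers summed to 863 to 1088 CPM in control and 853 to 1092 CPM in lactate libraries, mostly Acta2, with Des (1.99) and Mcam (1.79) called higher and Myh11 (−1.17) and Pdgfrb (−1.27) lower. The part of these shifts in the results below was not tested, and in RNA from whole cultures fewer cells of a type and less RNA per cell cannot be told apart.

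The caspase set did not move as a block. Casp9, Casp12, Casp6 and Xiap were called lower after lactate, Diablo and Apaf1 were called higher, and Casp2 and Casp8 were not called. Thus 4 of 8 were lower, where 34.6% of all tested genes were called lower, and 2 of 8 were higher, where 31.4% of all tested genes were called higher (66.0% in either direction). Control and lactate libraries did not overlap in TMM-scaled CPM for 7 of the 8 genes, against 72.2% of all tested genes. These shares are close to the background, and nothing about the set is read from them. The median log2 fold change of the set was −0.32, beside −0.10 over all tested genes. With library totals 6 of 8 were lower and 0 higher, where 61.8% and 12.5% of tested genes were called lower and higher. The median of the set was then −1.17, beside −0.96 (74.3% of all tested genes called). Both FPKM settings, limma on log2(FPKM + 1) and on log2(FPKM + 0.1), also left 0 of 8 higher and 6 lower, where 76.7% and 76.4% of all tested genes were called, 13.0% and 12.9% higher and 63.7% and 63.6% lower. Upper-quartile factors gave 1 higher and 4 lower (67.1% of all tested genes called, 27.5% higher, 39.6% lower). RLE factors gave 3 higher and 3 lower (65.8%, 32.5% and 33.3%), and DESeq2 gave 3 higher and 4 lower (67.4%, 33.3% and 34.1%). A replicate block gave 2 higher and 3 lower (64.1%, 30.5% and 33.6%). With the trend on transcript length removed 3 were higher and 3 lower (64.0%, 33.5% and 30.5%).

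**Figure D1:**
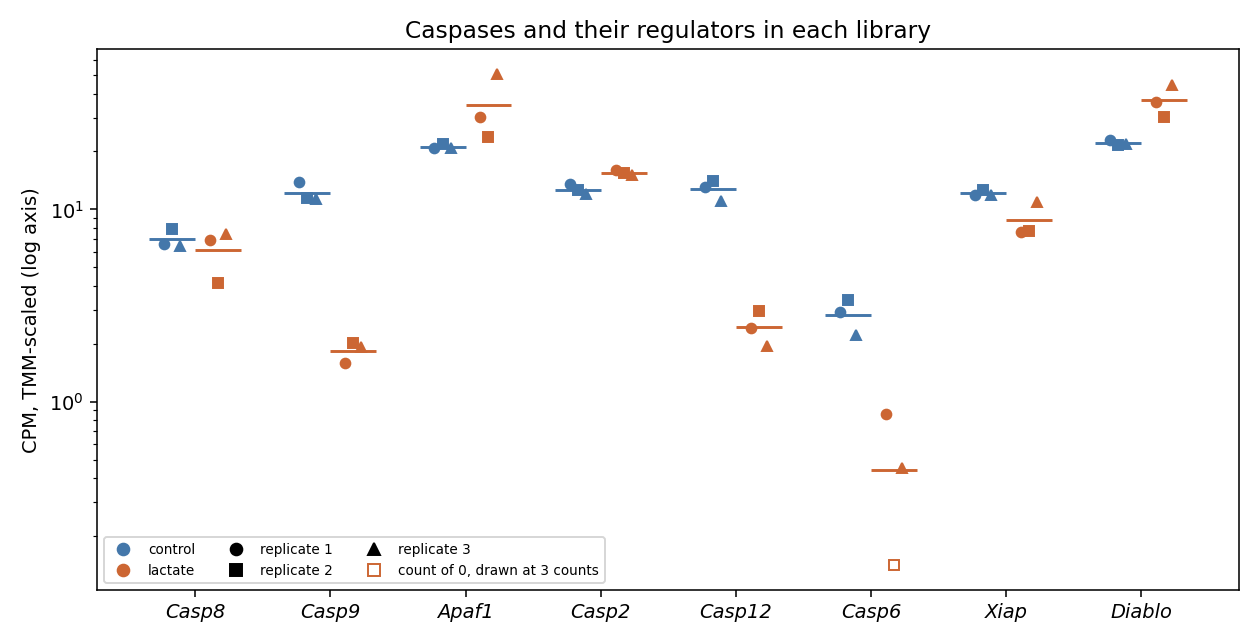
Level of each of the 8 genes in each library, in TMM-scaled CPM on a log axis, with control in blue, lactate in orange, a symbol for each replicate and a bar at the group mean. The lactate libraries of Casp9, Casp12 and Casp6 lie far under the controls (for Casp9 1.59 to 2.02 against 11.4 to 13.8 CPM), while Casp8 overlaps; the open square is the Casp6 count of 0 in lactate 2, drawn at the level of 3 counts.

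Casp9, the initiator of the mitochondrial route, had the lowest log2 fold change of the 8 genes with TMM factors. Its TMM-scaled level was 13.8, 11.4 and 11.4 CPM in control libraries 1, 2 and 3 and 1.59, 2.02 and 1.92 CPM in lactate libraries 1, 2 and 3. The groups are well apart: the lowest control library was several times the highest lactate library, and the 3 lactate libraries were close to each other. The log2 fold change was −2.72 ± 0.19 (SE; edgeR adjusted p = 6.8e-06), a 6.60-fold fall, lower in 3 of 3 lactate libraries than in any control. Of all tested genes, 3.88% had a lower log2 fold change. Scarce genes had lower log2 fold changes than abundant ones here. Among the 2749 genes in the same quintile of mean log2 CPM as Casp9, quintile 2 from the bottom, the median was −0.53 and 4.73% had a lower value than Casp9. In their own quintiles of level, 7.38% of genes had a lower value than Casp12, 13.1% than Casp6 and 42.4% than Xiap. For Casp8, Casp2, Apaf1 and Diablo it was 60.3, 69.0, 72.8 and 73.7%. The raw counts behind the lactate values of Casp9 were 35, 43 and 55, beside 536 to 633 in controls.

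The death receptor initiator Casp8 was not called. Its level was 6.63, 7.92 and 6.45 CPM in control libraries 1 to 3 and 6.89, 4.14 and 7.44 CPM in lactate libraries 1 to 3, on the TMM scale. Lactate 2 was lowest and the other lactate libraries lay within the control range, so the groups overlap. The log2 fold change was −0.18 ± 0.24 (SE; edgeR adjusted p = 0.53), and leaving out lactate replicate 2 turned it to 0.040. With library totals it was −1.02 and called lower (edgeR adjusted p = 0.0082), close to the −0.96 median of all genes in that scaling. Its partners of the receptor platform moved further. Fadd, the adaptor that binds Casp8, fell by 2.33 ± 0.25 on the log2 scale, and Cflar, the inactive relative of Casp8 that competes for the platform, fell by 1.17 ± 0.24 (edgeR adjusted p = 5.7e-05 and 0.0023).

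Casp2, which responds to DNA damage and faulty division, was slightly higher and not called. Control libraries 1 to 3 were at 13.5, 12.6 and 12.0 CPM and lactate libraries 1 to 3 at 16.0, 15.5 and 15.1 CPM on the TMM scale. The lactate libraries were all slightly above the controls, without overlap. Its log2 fold change of 0.29 ± 0.13 missed the threshold (edgeR adjusted p = 0.071). The direction of Casp2 rests on the scaling: library totals gave −0.57 and a call (edgeR adjusted p = 0.0054), and removing the length trend gave 0.61 and a call (edgeR adjusted p = 0.0029). RLE factors and DESeq2 both gave 0.34 and a call (edgeR adjusted p = 0.045 and DESeq2 adjusted p = 0.034), as did leaving out lactate replicate 3 (0.34, edgeR adjusted p = 0.030). Of the adaptors of its platform, Pidd1 missed the threshold at −1.04 ± 0.58 (edgeR adjusted p = 0.14) and was called at −1.90 with library totals (edgeR adjusted p = 0.019). Cradd was called lower from very low levels, 13 to 40 counts in control and 0 to 6 counts in lactate libraries (log2 fold change −2.25 ± 0.87, edgeR adjusted p = 0.044). That call was lost without the filter (0.059) and without control replicate 1 or 3 or lactate replicate 1 or 2 (edgeR adjusted p = 0.090, 0.17, 0.11 and 0.090).

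Apaf1, the scaffold on which Casp9 is activated, moved the opposite way to Casp9. Its TMM-scaled level was 20.9, 21.8 and 20.7 CPM in control libraries 1 to 3 and 30.1, 23.8 and 50.5 CPM in lactate libraries 1 to 3. Controls were nearly identical, while the lactate libraries spread widely, with lactate 3 far above the others. The change came to 0.72 ± 0.25 on the log2 scale (SE; edgeR adjusted p = 0.029), a 1.65-fold rise, with 3 of 3 lactate libraries above every control. The call was lost without control replicate 1, 2 or 3 (edgeR adjusted p = 0.085, 0.067 and 0.078), and without lactate replicate 3 the log2 fold change was 0.38 (edgeR adjusted p = 0.028). With library totals it was −0.11 and not called (edgeR adjusted p = 0.75), and without the length trend it was 1.26. Apaf1 is in length decile 10, the longest, whose median log2 fold change was −0.60.

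Casp12, a rodent caspase held at the endoplasmic reticulum and linked to stress of that compartment, fell almost as far as Casp9. Control libraries 1 to 3 were at 13.1, 14.0 and 11.1 CPM and lactate libraries 1 to 3 at 2.40, 2.96 and 1.96 CPM on the TMM scale. The groups do not overlap, and the spread within each is small beside the gap. On the log2 scale the change was −2.38 ± 0.21 (SE; edgeR adjusted p = 1.9e-05), a 5.22-fold fall seen in 3 of 3 lactate libraries. Of the endoplasmic reticulum stress death genes 5 of 12 were called higher and 4 lower, where 31.4% and 34.6% of all tested genes were. The other 3 were not called and the list median was −0.09. The 4 genes of this list named next are those with the smallest p, so they do not stand for the list. Ddit3, the transcription factor CHOP, rose by 4.69 ± 0.15 and the stress sensor Ern1 by 1.78 ± 0.12 on the log2 scale. The calpain subunit Capn2, a protease reported to cut Casp12, fell by 1.38 ± 0.09, while the small calpain subunit Capns1 rose by 1.58 ± 0.10. Casp4, the protein-coding neighbour of Casp12 in the rat assembly GRCr8 and a relative of it, was at 23.8 ± 5.18 CPM in control and 22.6 ± 5.66 CPM in lactate libraries (SD, n = 3), and its log2 fold change of −0.08 ± 0.22 was not called (edgeR adjusted p = 0.76; −0.95 and called with library totals, 0.11 without control replicate 2 and 0.12 without lactate replicate 3). Casp4 was named after its value was seen.

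The start regions of Casp9 and Casp12, which fell alike, and of Apaf1, which did not, are shown for comparison. The sequences are from RefSeq for GRCr8, run from 250 bases before to 50 bases after the annotated start, and are used here without coordinates of the study's own alignment. Of the 8 genes, 6 have such an entry, and Casp8 and Xiap have none. Casp9 lies at chr5:159391824-159392123 (+ strand), Casp12 at chr8:10926938-10927237 (+ strand) and Apaf1 at chr7:27466723-27467022 (− strand), each printed 5′ to 3′ on the gene's strand. Capitals mark matches, on either strand, to any of 8 motifs searched: the GC box GGGCGG, the CCAAT box CCAAT, the E2F forms TTTGGCGC and TTTCCCGC, the CHOP and ATF4 composite element TGATGNAAT, the CRE TGACGTCA, the AP-1 site TGACTCA and the E-box CACGTG.
Casp9: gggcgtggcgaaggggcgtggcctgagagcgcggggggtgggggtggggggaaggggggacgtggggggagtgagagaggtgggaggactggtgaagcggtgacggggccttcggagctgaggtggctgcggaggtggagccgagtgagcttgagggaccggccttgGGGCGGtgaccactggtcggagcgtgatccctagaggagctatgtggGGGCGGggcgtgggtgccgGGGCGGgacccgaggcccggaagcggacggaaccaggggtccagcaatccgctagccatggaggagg
Casp12: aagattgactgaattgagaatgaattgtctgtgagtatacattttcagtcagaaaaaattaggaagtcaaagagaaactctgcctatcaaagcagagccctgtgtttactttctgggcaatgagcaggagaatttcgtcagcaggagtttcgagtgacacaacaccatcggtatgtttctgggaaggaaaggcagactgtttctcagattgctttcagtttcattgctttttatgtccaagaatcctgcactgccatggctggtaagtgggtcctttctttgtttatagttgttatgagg
Apaf1: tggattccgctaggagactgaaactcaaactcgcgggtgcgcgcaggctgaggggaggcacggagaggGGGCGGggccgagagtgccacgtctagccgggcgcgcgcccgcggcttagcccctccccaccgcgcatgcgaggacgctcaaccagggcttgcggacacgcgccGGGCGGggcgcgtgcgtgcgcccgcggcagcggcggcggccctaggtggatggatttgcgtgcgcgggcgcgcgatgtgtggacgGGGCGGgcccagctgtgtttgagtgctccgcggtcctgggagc
The Casp9 window is 72.0% G or C and holds 3 GC boxes, and the Apaf1 window is 73.7% G or C and holds 3 GC boxes as well. The Casp12 window is 41.0% G or C and holds a match to none of the 8 motifs. Over all 33469 windows the median content is 51.7% G or C, and 33.1% hold a GC box, 37.5% a CCAAT box, 1.09% the composite element, 1.83% the CRE, 4.63% the AP-1 site, 6.42% the E-box, and 0.493% and 0.974% the E2F forms. Of the windows not printed, those of Casp2, Casp6 and Diablo hold 1 GC box each. That of Casp2 also holds 1 CCAAT box and 1 match to the E2F form TTTCCCGC. That of Diablo also holds 3 CCAAT boxes and 1 AP-1 site. A match is a description of letters, not a bound site.

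Casp6, the executioner known for cutting lamin A, was the scarcest of the 8 genes and was called lower. Control libraries 1 to 3 were at 2.91, 3.37 and 2.23 CPM and lactate libraries 1 to 3 at 0.862, 0 and 0.454 CPM on the TMM scale. Lactate 2 held no Casp6 read, which allows up to 3 counts or 0.141 CPM, for counting error only, and the other lactate libraries held 19 and 13 counts beside 105 to 174 in controls. Its log2 fold change was −2.67 ± 0.73 (SE; edgeR adjusted p = 0.011), lower in 3 of 3 lactate libraries. Its size rests on few reads: −3.51 without lactate replicate 1 and −2.11 without lactate replicate 2, called in both cases (edgeR adjusted p = 0.0085 and 0.0026).

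Xiap, the inhibitor that binds caspases directly, was slightly lower. Control libraries 1 to 3 were at 11.9, 12.6 and 11.9 CPM and lactate libraries 1 to 3 at 7.66, 7.71 and 10.9 CPM on the TMM scale. The groups do not overlap, but lactate 3 came close to the controls. Its log2 fold change was −0.46 ± 0.18 (SE; edgeR adjusted p = 0.044), at the edge of the threshold. It was lost with RLE factors (edgeR adjusted p = 0.055), without the length trend (−0.28, edgeR adjusted p = 0.18), with the replicate block (edgeR adjusted p = 0.057), and without control replicate 1, 2 or 3 or lactate replicate 1 or 2 (edgeR adjusted p = 0.082, 0.12, 0.098, 0.13 and 0.11). The authors' deposited table also leaves Xiap short of 0.05, with an adjusted p of 0.110. With library totals Xiap was at −1.31 and called (edgeR adjusted p = 0.00063).

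Diablo, the mitochondrial antagonist of Xiap, was the most abundant of the 8 genes and was called higher. Control libraries 1 to 3 were at 22.9, 21.6 and 21.8 CPM and lactate libraries 1 to 3 at 36.0, 30.2 and 44.5 CPM on the TMM scale. Every lactate library was above every control, and lactate 3 was again the highest, as for Apaf1 and Xiap. Its log2 fold change was 0.74 ± 0.15 (SE; edgeR adjusted p = 0.0023), a 1.67-fold rise, and it stayed called without any single library. With library totals it was −0.11 and not called (edgeR adjusted p = 0.63). The rise of Diablo, like that of Apaf1, was thus one relative to the bulk of genes.

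**Figure D2:**
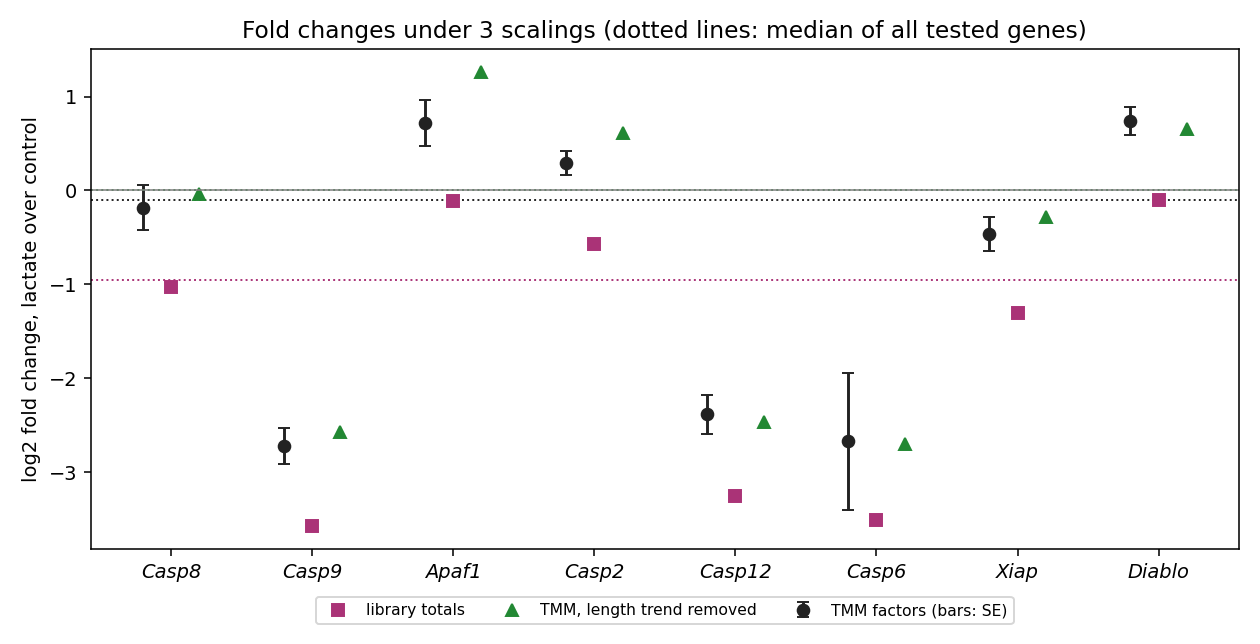
Log2 fold change (lactate over control) of the 8 genes with TMM factors (black, bars are SE), with library totals (purple) and with the length trend removed (green); dotted lines mark the median of all tested genes under each scaling. Casp9, Casp12 and Casp6 lie far under 0 in each scaling (−2.72, −2.38 and −2.67 with TMM factors), whereas Apaf1, Casp2 and Diablo change sign with library totals.

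Casp9, Casp12 and Casp6 were called lower in 17 of 17 alternatives each, the only genes of the set with the same call throughout. Their log2 fold changes ranged from −3.58 to −2.42, from −3.25 to −2.21 and from −3.62 to −1.56. In the authors' deposited table the log2 fold changes of these genes were −2.76, −2.42 and −2.71. Its values for Apaf1, Diablo, Casp2 and Casp8 were 0.68, 0.70, 0.25 and −0.22, with adjusted p-values of 0.0183, 0.00180, 0.344 and 0.620.

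Because FPKM divides by transcript length, the genes could be ordered by level within a group. In control libraries the order from the top was Diablo (22.4 ± 0.932 FPKM, SD, n = 3), Casp12 (12.4 ± 1.35), Casp9 (7.88 ± 0.993), Xiap (6.53 ± 0.331), Casp2 (4.84 ± 0.318), Casp8 (4.57 ± 0.468), Apaf1 (4.54 ± 0.0628) and Casp6 (2.52 ± 0.546). The range of Casp8 overlapped those of both Casp2 and Apaf1 there, while those of Casp2 and Apaf1 did not overlap. In lactate libraries the order was Diablo (20.7 ± 5.60 FPKM, SD, n = 3), Apaf1 (4.18 ± 2.01), Casp2 (3.35 ± 0.255), Xiap (2.67 ± 0.666), Casp8 (2.22 ± 0.763), Casp12 (1.29 ± 0.179), Casp9 (0.658 ± 0.0277) and Casp6 (0.195 ± 0.188). From Apaf1 down to Casp12 the ranges of neighbours overlapped. Diablo stayed first and Casp6 last, while Casp12 went from place 2 to 6 and Casp9 from place 3 to 7, and Apaf1 went from place 7 to 2.

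The shares of the 5 caspases in their own summed mRNA do not depend on how libraries are scaled to each other, and they differed between the groups. The FPKM of Casp2, Casp6, Casp8, Casp9 and Casp12 were summed in each library, a summary chosen after their values were seen. Casp9 made up 26.4, 21.6 and 25.5% of this sum in control libraries 1 to 3 and 8.12, 10.4 and 7.51% in lactate libraries 1 to 3. Casp12 was the largest part in each control library, at 37.8, 40.1 and 37.4%, and stood at 15.4, 22.4 and 13.4% in lactate libraries 1 to 3. After lactate the largest part was Casp2, with 15.2, 14.1 and 15.9% in control libraries 1 to 3 and 42.2, 46.3 and 42.3% in lactate libraries 1 to 3. For these 3 genes, and for Casp8 and Casp6 as well, the groups do not overlap in share, where 72.2% of all tested genes do not overlap in TMM-scaled CPM. The shares add up to the whole in each library, so the fall of some raises the others, and these are not separate results. The share of Casp8 was 14.2% ± 1.25 without and 28.3% ± 6.75 with lactate (SD, n = 3), and that of Casp6 was 7.77% ± 1.16 without and 2.38% ± 2.33 with lactate. The sum itself went from 32.2 ± 2.79 to 7.71 ± 0.954 FPKM. The larger shares of Casp2 and Casp8 thus stand beside FPKM values that were not higher after lactate. FPKM does not centre the bulk of genes: with log2(FPKM + 0.1) the median log2 fold change of all tested genes was −0.92. With TMM factors Casp2 was at 0.29 and Casp8 at −0.18 on the log2 scale, neither called.

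**Figure D3:**
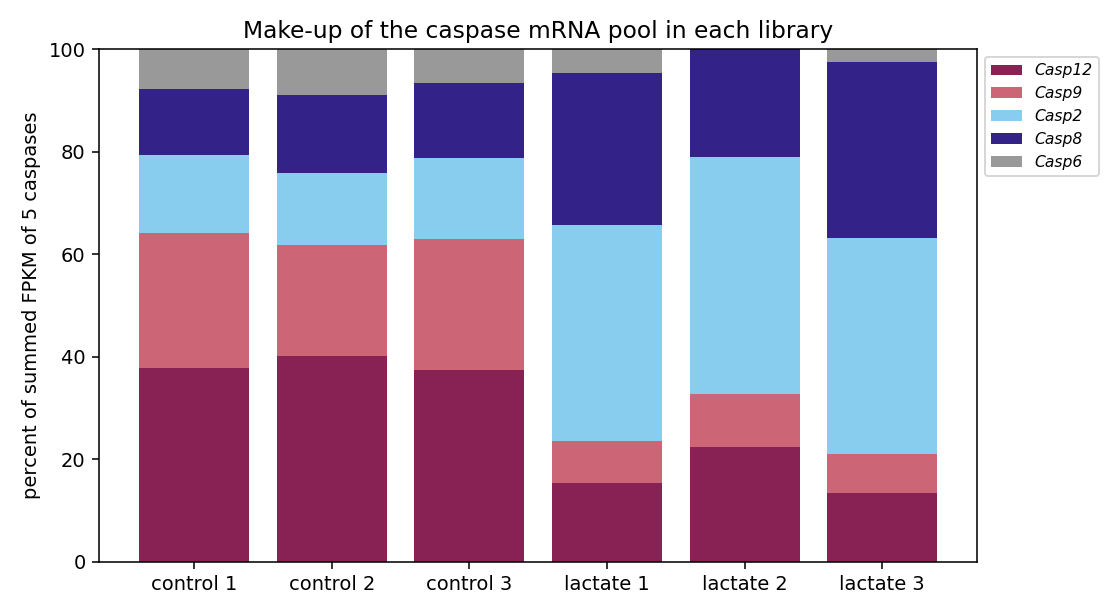
Share of each of 5 caspases in their summed FPKM, one stacked bar per library, in percent. Casp12 and Casp9 (the lowest segments) shrink from 38.4% and 24.5% on average in control to 17.1% and 8.67% in lactate libraries, while Casp2 grows from 15.1% to 43.6%.

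Ratios between genes of one route, taken within a library from FPKM, are likewise free of the scaling. Casp9 over Apaf1 was 1.99, 1.57 and 1.65 in control libraries 1 to 3 and 0.191, 0.261 and 0.0980 in lactate libraries 1 to 3. The control libraries held more Casp9 than Apaf1 mRNA per length, and the lactate libraries far less. The difference of the log2 ratio was −3.35. Diablo over Xiap was 3.68, 3.12 and 3.51 in control and 8.52, 6.87 and 7.79 in lactate libraries, a log2 difference of 1.17. The antagonist thus gained on the inhibitor in 3 of 3 lactate libraries, with no overlap. Casp9 over Xiap differed by −2.26 on the log2 scale, from 1.05 to 1.42 in control to 0.184 to 0.299 in lactate libraries. Casp8 over its competitor Cflar ranged over 0.378 to 0.483 in controls but 0.743 to 0.949 after lactate, a log2 difference of 1.01, although Casp8 itself was not called.

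Casp8 over Casp9 and Casp2 over Casp9 both crossed from under to over 1, with log2 differences of 2.47 and 3.04. For these 6 ratios the groups did not overlap and the two-sided exact permutation test gave p = 0.1, the smallest that 3 libraries against 3 allow (0.117 adjusted over the 7 ratios). The ratios that hold Casp9 share its fall and are not separate results. Of all tested genes, 72.2% did not overlap in TMM-scaled CPM, and no such share was taken for ratios. Casp6 over Casp9 was 0.260 to 0.413 in control libraries and 0.573 and 0.332 in lactate libraries 1 and 3, and 0 in lactate 2, where Casp6 is at 0. Its log2 is undefined there, and that library was left out of the test. The groups overlapped (log2 difference 0.47, exact permutation p = 0.4, smallest possible 0.2, also 0.4 adjusted). That test, on 3 against 2 libraries, could not have shown a difference.

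**Figure D4:**
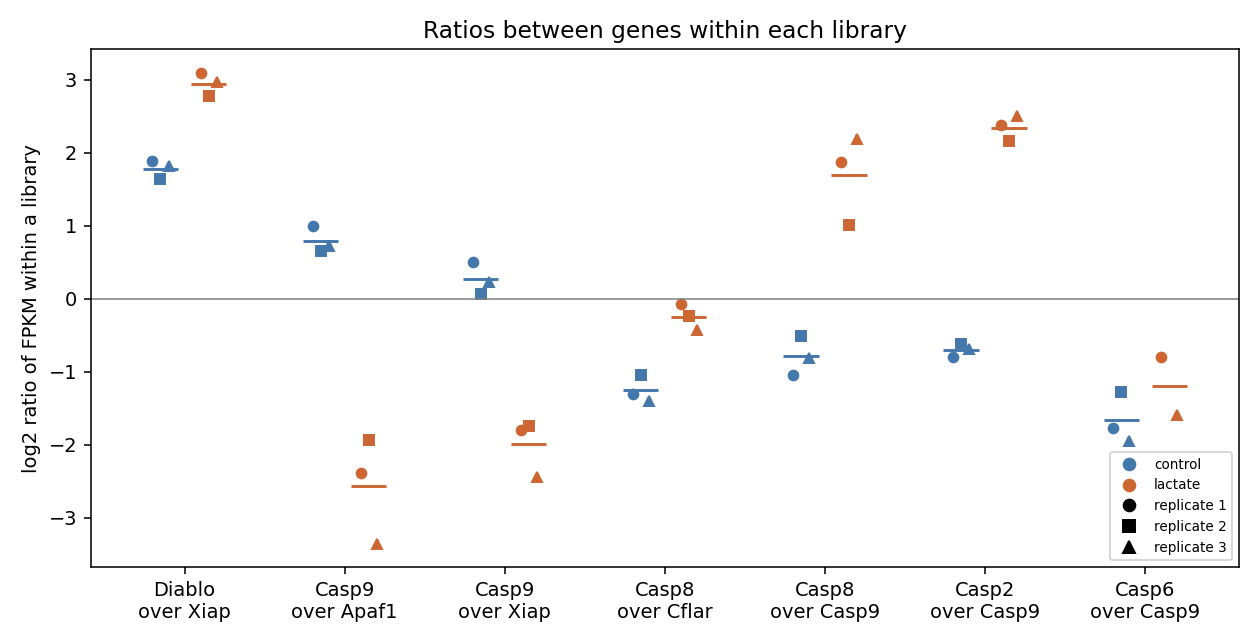
Log2 ratio of FPKM between gene pairs within each library, control in blue and lactate in orange, with a symbol for each replicate and a bar at the group mean. Casp9 falls against Apaf1 and Xiap (log2 differences −3.35 and −2.26), Diablo gains on Xiap (1.17), and only Casp6 over Casp9 overlaps between groups.

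Counts and FPKM together imply a transcript length, if the authors' FPKM was made from these counts and their totals, which the sources used here do not state. This implied length was not constant for every gene. For Apaf1, Diablo, Casp12 and Casp8 the implied length varied little, the largest value over the smallest being 1.01 to 1.02. For Casp9 it was 2088, 2084 and 2084 bases in control libraries 1 to 3 but 1748, 2064 and 2448 bases in lactate libraries 1 to 3. Casp9 thus had a single value in controls and 3 separate ones after lactate, where its counts are 35 to 55. Among 10578 genes with at least 30 counts in every library, 99.0% had a smaller relative spread over the lactate libraries than the 1.40 of Casp9. A spread over 1.1 was found in 4.66% of these genes over lactate libraries and 3.39% over controls. Xiap had 2350 to 2553 bases and Casp2 3390 to 3542 bases over the 6 libraries, and Casp6 1492 to 1571 bases in control and 1656 and 1745 bases in lactate libraries 1 and 3. Such a spread enters the FPKM values and ratios of these genes. With ratios of counts in place of FPKM the log2 difference was −3.37 for Casp9 over Apaf1 and 1.21 for Diablo over Xiap.

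The other genes of the apoptosis pathway were called about as often as genes at large. Of 75 listed, 67 were in the table and 65 tested, and 22 were higher, 22 lower and 21 not called, with a median log2 fold change of −0.21 beside −0.10 for all tested genes, of which 31.4% were called higher and 34.6% lower. With library totals 8 were higher and 46 lower, where 12.5% and 61.8% of all tested genes were. Counts in the lists below are set against these same shares, and nothing particular to a list is read from them. Among death receptors and adaptors 5 of 10 were lower and 3 higher (median −0.95), where 34.6% and 31.4% of all tested genes were. Ripk1, a kinase that shares the receptor complexes with Casp8, fell by 3.06 ± 0.15 on the log2 scale, beside a rise of Tnfrsf21, a death receptor, by 2.03 ± 0.10. The adaptor Traf2 rose by 1.55 ± 0.15 and Daxx by 1.17 ± 0.12, the latter not called with library totals (0.32).

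Genes of the apoptosome and of mitochondrial release were called higher in 8 of 15 cases and lower in 2 (median 0.33), where 31.4% and 34.6% of all tested genes were. With library totals 0 were higher and 10 lower, where 12.5% and 61.8% of all tested genes were. Cycs, the cytochrome c that triggers assembly of Apaf1, was higher by 0.64 ± 0.12 on the log2 scale with TMM factors and at −0.22 with library totals. The chaperone Hspa9 was likewise at 0.61 ± 0.10 and −0.24, Hspa4 at 0.91 ± 0.11 and 0.063, and Prelid1 at 1.01 ± 0.10 and 0.14. The protease Htra2, released with Diablo and also an Xiap antagonist, missed the threshold at −0.24 ± 0.19 (edgeR adjusted p = 0.29). It was called at −1.12 with library totals (edgeR adjusted p = 0.00036) and was at −0.015 without lactate replicate 3. Of 6 inhibitors of apoptosis and their regulators, Birc2 (cIAP1) rose by 2.65 ± 0.13, while Birc3 (cIAP2), at −1.69 ± 0.49, and the giant ubiquitin ligase Birc6, at −1.07 ± 0.20, fell and 3 were not called. The value for Birc6 was −0.21 and not called without the length trend. Birc5 (survivin) was at −0.25 ± 0.14 (edgeR adjusted p = 0.15), and called at −1.12 with library totals (edgeR adjusted p = 0.00028). In the list built on Casp2 and p53, Mdm2, the ubiquitin ligase of p53, rose by 3.69 ± 0.13 and Madd fell by 1.98 ± 0.26. In that list 1 of 5 was higher and 2 were lower (median −1.04).

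Among caspase substrates and nucleases 6 of 14 were lower and 3 higher (median −0.23), where 34.6% and 31.4% of all tested genes were. Dffa, the inhibitor of the caspase-activated nuclease, fell by 2.62 ± 0.15 on the log2 scale, whereas the nuclease Dffb itself rose by 1.02 ± 0.18 (edgeR adjusted p = 0.0012; 0.17 and not called with library totals) and was named after its value was seen. Lmnb2, a lamin, fell by 1.40 ± 0.15 on the same scale, and the lysosomal nuclease Dnase2 was higher by 0.87 ± 0.11 but at 0.0038 with library totals and −0.0086 with log2(FPKM + 1). The median of the endoplasmic reticulum stress death genes was −0.09.

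**Figure D5:**
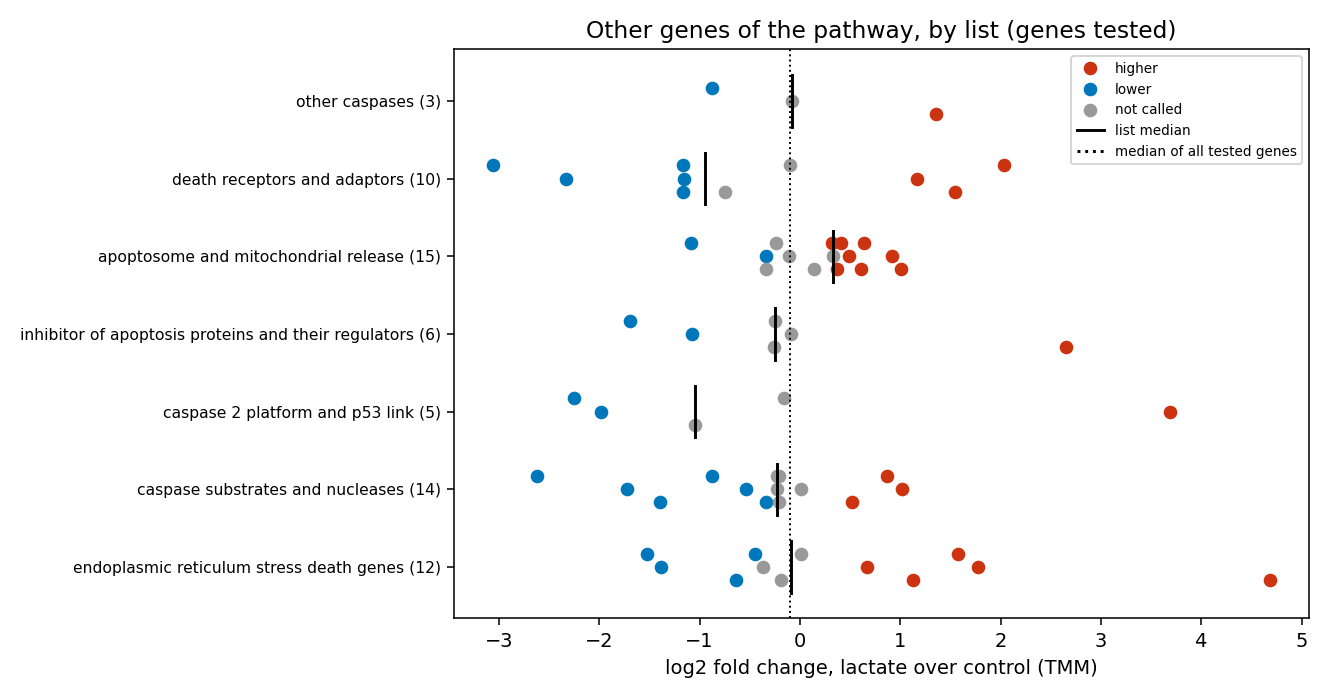
Log2 fold change (lactate over control, TMM factors) of 65 other pathway genes, a point per gene, by list, with red for called higher, blue for called lower and grey for not called; black bars are list medians and the dotted line the median of all tested genes (−0.10). List medians were −0.95 for receptors and adaptors and 0.33 for mitochondrial release genes. With library totals they were −1.81 and −0.53, beside −0.96 for all tested genes. Both lists held genes called in each direction with TMM factors.

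The likeness of profiles was measured as the root mean square difference of log2 CPM over the 6 libraries after each gene's mean was subtracted, a description in which the group difference dominates. The pathway gene nearest to Casp9 was Dffa, at 0.14 log2 units, with 6 of all tested genes at least as near, Dffa itself included. The counts that follow likewise include the nearest gene itself. For Apaf1 it was Eif2ak3, a stress kinase of the endoplasmic reticulum that was highest in lactate 3 as well (log2 fold change 0.67 ± 0.24 with TMM factors, −0.16 with library totals), at 0.072 with 5 genes at least as near. Like that of Apaf1, the call of Eif2ak3 was lost without control replicate 1, 2 or 3 (edgeR adjusted p = 0.082, 0.10 and 0.089). It was also lost with upper-quartile factors (0.079) and without lactate replicate 3 (log2 fold change 0.34, edgeR adjusted p = 0.060). Casp12 was nearest to Fadd (0.22, with 87 genes at least as near), Diablo to Hspa9 (0.12, with 129), Xiap to the ubiquitin ligase Rnf34 (0.15, with 337; itself at −0.24 and not called, but at −1.09 and called with library totals) and Casp6 to Ripk1 (1.16, with 341). Casp9 and Casp12 lay 0.27 apart, and Apaf1 and Diablo 0.17.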

How the data were processed

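RNA of 3 control and 3 lactate libraries was sequenced from an mRNA library kit, per the labels' protocols. The authors deposited raw read counts per gene and FPKM, and their own comparison with log2 fold changes, p-values and adjusted p-values, per the file headers. Aligner, counter, annotation and strand setting: not given in the sources used here. Mouse builds (GRCm38, mm10) stand in the submitters' processing notes although the genes carry rat names, so the genome was not settled. A smaller table of selected genes with the same counts was not used.

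Counts were tested as deposited with edgeR 4.0.16 in R 4.3.3 (quasi-likelihood test, TMM factors, filterByExpr, group as the only term, Benjamini-Hochberg adjustment over 13747 genes), and called at an adjusted p under 0.05. The SE is the unshrunken coefficient over the root of F. Levels are TMM-scaled CPM or deposited FPKM. Depth was 30291357 to 38989574 counts, and 3 counts came to 0.0581 to 0.141 CPM. Alternatives were other factors and filters, DESeq2 1.42.0, limma 3.58.1 (voom, and trend on log2(FPKM + 1) and log2(FPKM + 0.1)), a replicate block, a length trend removed by lowess (span 0.3), and each library left out. The scripts were tested on simulated data in which few genes changed, equally many up and down. That simulation does not bear on the choice of scaling between the groups. The 8 genes and the lists were chosen with earlier results of these data known. Genes named were the 8, up to 4 called genes with the smallest p of each list, 10 genes fixed whatever their result, and the nearest pathway gene of each called member. Casp4 and Dffb were added after their values were seen. Some genes that this rule names are not reported here.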

Additional observations from a re-analysis of the deposited data

How the results depend on the processing

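Over 17 alternatives for each of the 8 genes, Casp9, Casp12 and Casp6 kept their direction and call throughout. Scaling by library totals, log2(FPKM + 1) and log2(FPKM + 0.1) gave 1722, 1781 and 1770 genes higher and 8492, 8759 and 8737 lower, against 4319 and 4760 with TMM. Each of these settings called 0 of the 8 genes and 8 pathway genes higher, and 46 pathway genes lower. In the same order of settings Casp2 was at −0.57, −0.43 and −0.52, Apaf1 at −0.11, −0.17 and −0.22, Diablo at −0.11, −0.14 and −0.15, Cycs at −0.22, −0.22 and −0.22, Hspa9 at −0.24, −0.26 and −0.26, and Eif2ak3 at −0.16, −0.23 and −0.27. Dnase2 was at −0.0086 and −0.0091 with the FPKM settings. These settings do not centre the bulk of genes. Upper-quartile factors called 1 of the 8 higher (Diablo), with Apaf1 lost (edgeR adjusted p = 0.060).

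With each library left out, 1 to 3 of the 8 genes were called higher and 3 or 4 lower, where 28.2 to 32.0% and 29.4 to 35.0% of all tested genes were. Casp8 ranged from −0.32 to 0.040, the latter without lactate replicate 2, and Casp4 from −0.27 to 0.12. The cause of these changes was not tested. Same-numbered libraries deviated from their group means with correlations across genes of 0.0078, 0.038 and 0.084. Libraries of unlike number gave −0.11 to 0.071. Deviations from a mean of 3 libraries are tied to each other, so these values cannot decide whether the numbers pair the libraries. With the replicate block 4190 genes were higher and 4624 lower, 2 of the 8 genes were higher and 3 lower, and 21 pathway genes were higher and 21 lower. Xiap was then at an adjusted p of 0.057. Low counts limit Casp6 most of the 8 genes, with 0 to 19 counts in lactate libraries.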
